A study of Mus musculus with 16 samples.

Results

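Mouse embryonic stem (ES) cells that lack Ndst1 and Ndst2 were compared with wild-type ES cells whose FGF receptors had been blocked. The comparison took 8 of the 16 arrays of the study, which held 6 of its 12 cultures: 3 cultures of untreated Ndst1/2-/- cells and 3 of wild-type cells given 5 µM SU5402 for 24 h. Members were taken from the sample labels. Expression was read on Illumina bead arrays, in which 12022 to 12821 probes were detected per array. Untreated wild-type CCE cells and wild-type cells given 20 mM sodium chlorate for 24 h, with 3 cultures each, were used for reference and for the estimate of error. All cells were grown on gelatin without a feeder layer named in the labels, in 15% serum and 1000 IU/ml LIF, the cytokine that keeps mouse ES cells undifferentiated. The labels name no vehicle for SU5402, no parental line for the Ndst1/2-/- cells, and no number of mutant clones. Genotype and line therefore cannot be told apart, and the mutant state was lasting while the inhibitor acted for 24 h.

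Heparan sulfate is a sulfated sugar chain carried by core proteins at the cell surface, where it helps FGF ligands bind their receptors. Ndst1 and Ndst2 replace acetyl groups on the chain with sulfate, and the later sulfation steps depend on that change. In ES cells Fgf4 acting through ERK readies the cells to leave the naive state, and SU5402 inhibits the kinase of FGF receptors. The question was which genes differed when the same pathway was reached through the co-receptor sugar or through the receptor. No probe in the tables used here carries the name Ndst1 or Ndst2, so the deleted genes were not analysed here.

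Many genes differed between Ndst1/2-/- and SU5402-treated cells, most of them by little. Among 22 tested FGF-ERK genes, Dusp4, Egr1 and Phlda1 were lower in the mutant, Gbx2 and Etv1 were higher, and 9, Dusp6 among them, were not called. Of 13377 probes tested, 3803 (28.4%) were higher and 3947 (29.5%) were lower in Ndst1/2-/- cells than in SU5402-treated cells (limma with Benjamini-Hochberg adjustment, adjusted p under 0.05), and 57.9% were called in either direction. Of all 13377 probes, 397 (2.97%) were called and at least 2-fold higher, and 536 (4.01%) were called and at least 2-fold lower. The median absolute log2 difference was 0.26. For 8612 probes (64.4%) the whole 95% interval of the difference lay within 1.5-fold. The cultures of the 2 groups did not overlap at 8501 of the 13377 probes, called or not, so a lack of overlap was common. Counted by gene, with the brightest probe standing for each of 9107 genes, 28.5% were higher and 31.6% lower, and the median log2 difference was -0.0029. All counts of list members below are to be read beside these 2 shares. On the first principal component of all 12 cultures (70.8% of variance) the Ndst1/2-/- cultures lay at 48.9 to 49.3 and the SU5402 cultures at -15.0 to -14.6. The ES cell genes Pou5f1, Sox2, Nanog, Zfp42, Utf1, Dppa5a and Tdgf1 were detected on all 8 arrays. Arrays fell into 2 sets by brightness, balanced over the groups. Within set A 3143 probes were higher and 3238 lower, within set B 3053 and 3203, and with the set as a block 4113 and 4232. The block fit took the 2 arrays of culture 3 as separate samples, so its counts do not rest on independent cultures alone. The labels call the cultures biological replicates, but cultures of a group differed about as much as 2 arrays of 1 culture (SD of the difference 0.179 to 0.213 log2 units against 0.179 and 0.190), so the p-values measure only the spread between these samples.

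Genes of 2 chromosomes were shifted together in the Ndst1/2-/- cells. Of 489 tested genes on chromosome 8, 308 (63.0%) were higher and 53 (10.8%) lower, and the median log2 difference was 0.35. Of 803 genes on chromosome 11, 90 (11.2%) were higher and 485 (60.4%) lower, with a median of -0.34. Chromosome 8 thus held 11.9% of all genes called higher, against 5.37% of the genes tested, and chromosome 11 held 16.9% of those called lower, against 8.82%. In single Ndst1/2-/- cultures the chromosome 8 median, measured from the SU5402 mean, was 0.37, 0.36 and 0.36, and the chromosome 11 median was -0.33, -0.33 and -0.35. The untreated cultures gave 0.01 to 0.03 on chromosome 8 and -0.02 to 0.00 on chromosome 11, so it was the mutant cells that stood apart. The shift ran along chromosome 8: the 10 runs of 48 to 49 neighbouring genes had medians of 0.14 to 0.51. On chromosome 11 the first run had a median of -0.04 and the other 9 had medians of -0.50 to -0.32. Among the other chromosomes, with Y set aside, the largest medians were 0.15 on chromosome 14 and -0.15 on chromosome X. Single runs elsewhere reached -0.41 on chromosome 6 and 0.34 on chromosome 14, against extremes of -0.50 on chromosome 11 and 0.51 on chromosome 8. With the arrays scaled to equal medians in place of quantile normalization, chromosome 8 stood at 0.43 and chromosome 11 at -0.27. No test was made of these medians. Genome copy number was not measured on these arrays, so its part in the shifts was not tested.

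**Figure D1:**
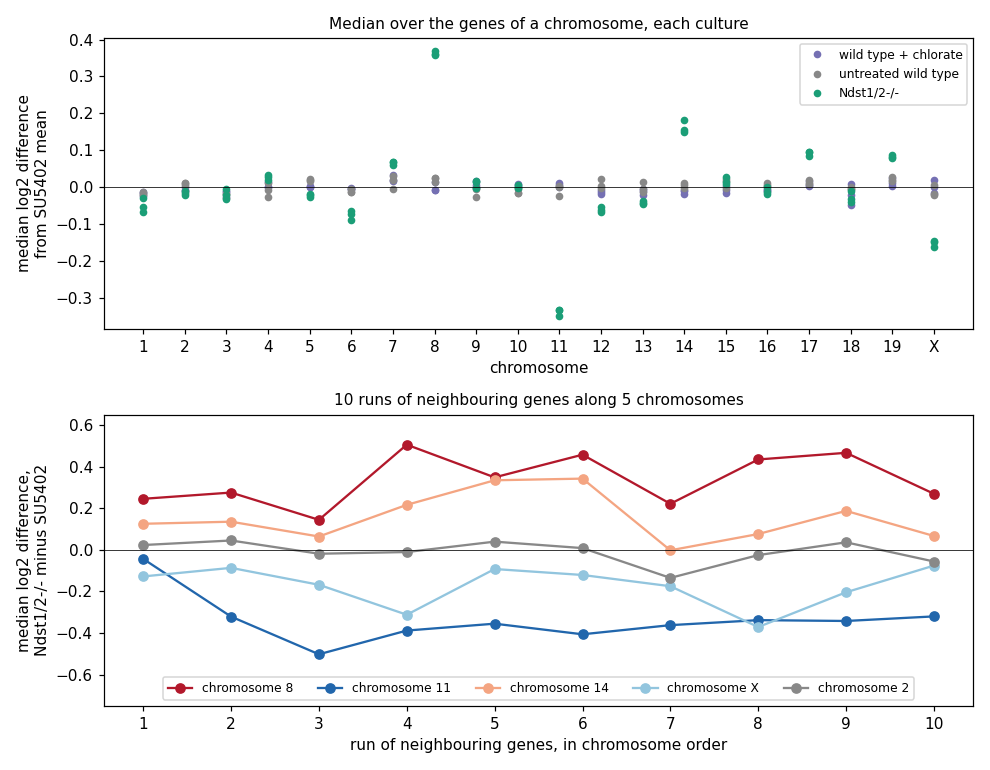
Upper panel: for each culture (points) the median over a chromosome's genes of its log2 intensity minus the SU5402 mean, with the Ndst1/2-/- points near 0.36 on chromosome 8 and near -0.33 on chromosome 11 and the untreated and chlorate points near 0. Lower panel: median log2 difference, Ndst1/2-/- minus SU5402, in 10 runs of neighbouring genes along 5 chromosomes, with chromosome 2 as an example of a chromosome near 0.

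Chromosome Y also differed in part. Zfy1, Kdm5d and Usp9y were detected on all 4 SU5402 arrays and on 0 of 4 Ndst1/2-/- arrays, with mean log2 intensities of 4.78, 4.51 and 4.37 in the mutant and 6.16, 5.88 and 5.66 with SU5402. Uty (6.14 and 6.17) and Sly (6.01 and 6.01) were detected on every array of both groups and were not called. Eif2s3y, which encodes a translation initiation subunit, was lower in the mutant (9.69 against 10.18) yet bright in both. Probes named for Uty, Sly and Eif2s3y thus gave signal in both groups. Whether these probes read chromosome Y alone was not tested, nor was the presence of the chromosome.

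Dusp6 encodes the phosphatase that switches ERK off and is itself an ERK target. Its log2 intensities were 9.82, 9.71 and 9.84 in the Ndst1/2-/- cultures and 9.96, 9.68 and 9.74 with SU5402, so the groups overlapped, and both were below the untreated cultures (11.17, 11.03 and 11.17). The difference was -0.00 ± 0.08 (SE, n = 3 cultures a group; 95% interval -0.18 to 0.17; limma, adjusted p = 0.97). Myc, a growth-promoting transcription factor gene near the detection limit (1 of 4 mutant and 2 of 4 SU5402 arrays), stood at 5.17, 5.00 and 4.95 in the mutant and at 5.06, 4.91 and 5.10 with SU5402, against 6.39 to 6.56 untreated. Its difference was 0.02 ± 0.09 (95% interval -0.18 to 0.21), which at this dim level limits the transcript's difference only loosely. For Dusp6, detected on all 8 arrays, the interval excludes a 1.5-fold difference in either direction. Each group's values against untreated cells share those 3 untreated cultures, so they are given side by side and not compared with each other as results.

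Other ERK targets were lower in the mutant than with the inhibitor. Dusp4, a second ERK phosphatase gene, measured 6.71, 6.73 and 6.61 in Ndst1/2-/- cells and 7.57, 7.70 and 7.60 with SU5402, with no overlap (difference -0.94 ± 0.08; limma, adjusted p = 4.48e-07). Untreated cells stood at 8.86 to 8.93, and the second probe of Dusp4 gave -0.55. Dusp4 is on chromosome 8, where most genes were higher. Etv4, an ETS transcription factor gene induced by FGF, measured 7.37, 7.35 and 7.14 against 7.70, 7.62 and 7.66 with SU5402 and 9.82 to 10.03 untreated (difference -0.37 ± 0.08; adjusted p = 0.00191), so both groups lay far below untreated cells and the gap between them was small. Etv4 is on chromosome 11, whose median was -0.34. Spry4, a feedback inhibitor of receptor signalling, differed by -0.38 ± 0.13 (adjusted p = 0.0206), and the call was lost without SU5402 replicate 1 (-0.24; adjusted p = 0.0971) or Ndst1/2-/- replicate 2 (-0.35; adjusted p = 0.0633). The related inhibitor Spred1 differed by -0.22 ± 0.07. Its call was lost without SU5402 replicate 1 or 2 (adjusted p = 0.0587 and 0.0772) and without Ndst1/2-/- replicate 1 or 3 (adjusted p = 0.0582 and 0.0529).

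Some genes that respond to ERK and to other signals within minutes were lower in the mutant, while Junb (0.09) and Ier3 (0.11) were not called. Egr1, a zinc-finger factor gene, stood at 10.25, 10.25 and 10.35 in Ndst1/2-/- cells, at 11.32, 11.32 and 11.24 with SU5402 and at 11.10 to 11.22 untreated. The mutant cultures were the lowest, with a difference from SU5402 of -1.01 ± 0.06 (adjusted p = 3.64e-08). The ERK-responsive gene Phlda1 differed by -1.09 ± 0.10 and the stress-responsive phosphatase gene Dusp1 by -0.67 ± 0.06, each without overlap. Fos (-0.27) was also lower, a call lost without SU5402 replicate 1 (-0.17; adjusted p = 0.0676). Egr2 was detected on no mutant array and on 3 of 4 SU5402 arrays, and its call was lost without SU5402 replicate 3 (adjusted p = 0.0529).

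Other FGF-ERK genes were higher in the mutant than with SU5402. Gbx2, a homeobox gene that supports ES cell self-renewal, measured 10.49, 10.45 and 10.39 in Ndst1/2-/- cells against 9.33, 9.27 and 9.38 with SU5402 and 11.80 to 11.90 untreated. The 3 groups did not overlap, and the mutant lay between the other 2 (difference from SU5402 1.12 ± 0.07; adjusted p = 2.49e-08). Etv1, an ETS factor gene related to Etv4, measured 6.43, 6.09 and 6.12 in the mutant and 4.86, 5.22 and 4.93 with SU5402, where 1 of 4 arrays detected it, against 5.65 to 6.07 untreated (adjusted p = 1.54e-05), so no exact fold is given. Etv5, of the same family, averaged 9.16 in the mutant and 9.01 with SU5402 and was not called (adjusted p = 0.0567), but it was called without Ndst1/2-/- replicate 1 (0.21) or SU5402 replicate 2 (0.20). The G1 cyclin gene Ccnd1 was also higher (0.84 ± 0.07), as was the phosphatase gene Dusp7 (0.44 ± 0.09). In all, 4 of the 22 tested FGF-ERK genes were higher, 9 were lower and 9 were not called, beside 28.5% and 31.6% of all genes, and 13 had an interval wholly within 1.5-fold. Il17rd was called without Ndst1/2-/- replicate 3 (-0.21) and Spred2 without untreated or chlorate replicate 2 (0.21 in both cases). The uncalled members were Dusp6, Myc, Etv5, Il17rd, Spry2, Spred2, Spred3, Junb and Ier3, and 3 more on the array (Spry1, Fosl1 and Ier2) did not pass the detection filter. The median of the list was -0.04, and -0.0031 with genes undetected in a group set at their bound.

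**Figure D2:**
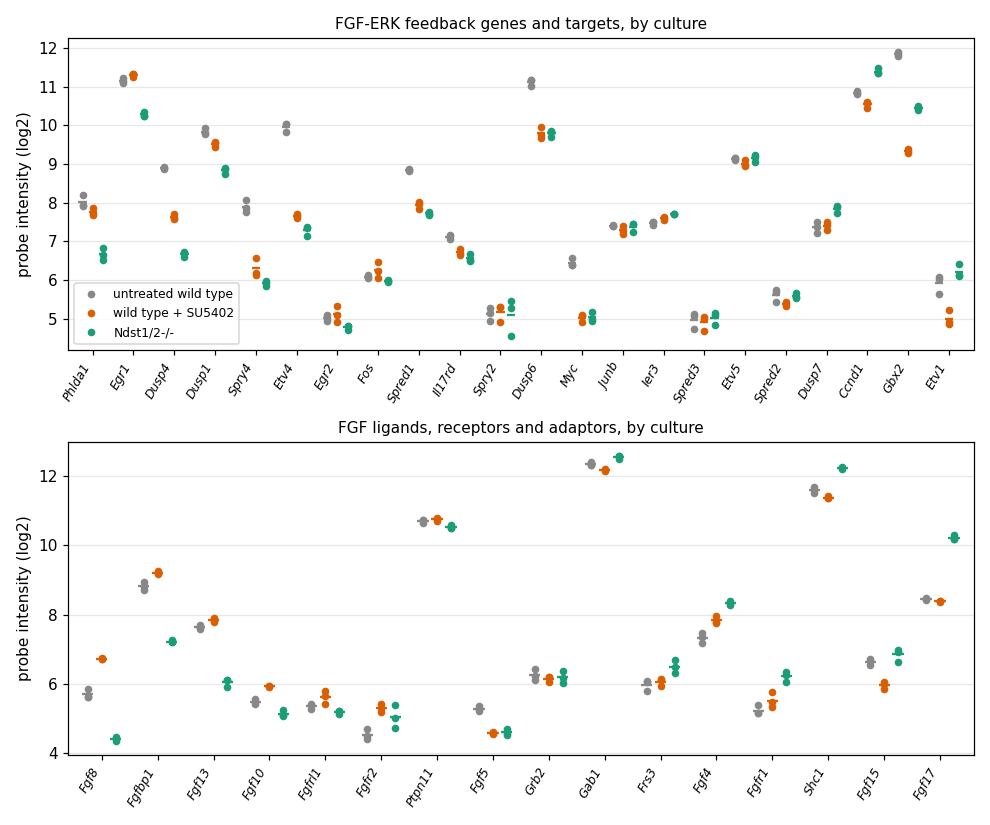
Log2 probe intensity of each FGF-ERK gene (upper panel) and each FGF ligand, receptor or adaptor gene (lower panel) in the 3 cultures of each group (points) with the group mean (bar), ordered by the difference between Ndst1/2-/- and SU5402. Dusp6 and Myc overlap between those 2 groups and lie below untreated cells, while Fgf8 sits at about 4.4 in the mutant and 6.7 with SU5402.

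The FGF ligand genes went in both directions. Fgf8, a ligand of the primitive streak and early epiblast, measured 6.72, 6.71 and 6.75 with SU5402 and was detected on no Ndst1/2-/- array (4.48, 4.43 and 4.37), at least 3.05-fold lower in the mutant (limma, adjusted p = 2.73e-10). Untreated cells lay between, at 5.63 to 5.86. Fgf17, a ligand of the same subfamily, went the other way, with 10.19, 10.19 and 10.29 in the mutant against 8.36, 8.40 and 8.40 with SU5402 and 8.42 to 8.47 untreated (difference 1.83 ± 0.06, or 3.56-fold; second probe 1.41). Fgf4, the main autocrine ligand of ES cells, measured 8.39, 8.34 and 8.28 in the mutant and 7.96, 7.79 and 7.75 with SU5402 (difference 0.50 ± 0.09), both above untreated cells (7.20 to 7.47). The epiblast ligand Fgf15 was 0.88 ± 0.10 higher. Fgf10 was lower on both probes (means 5.14 and 4.93 against 5.94 and 5.96), which were detected on 1 and 0 of 4 mutant arrays, and Fgf5, a primed epiblast ligand, was detected on no array of either group. Fgfbp1, which encodes a secreted carrier that releases FGF ligands from heparan sulfate, measured 7.20, 7.26 and 7.21 in the mutant against 9.26, 9.20 and 9.17 with SU5402 (3.97-fold lower; adjusted p = 7.93e-10), with 8.71 to 8.93 untreated. Fgf13, which encodes an intracellular protein that is not a receptor ligand, differed by -1.79 ± 0.07 on its brightest probe, detected on all 8 arrays. Its other 2 probes were detected on no SU5402 array and were not called.

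Among receptors and adaptors, Fgfr1, the principal FGF receptor of ES cells, measured 6.26, 6.07 and 6.35 in the mutant and 5.77, 5.33 and 5.48 with SU5402 (difference 0.70 ± 0.12), with both probes alike. Fgfr1 and the adaptor gene Gab1 (0.37 ± 0.05) are on chromosome 8, whose median was 0.35. Fgfr2 was not called: its cultures spanned 4.73 to 5.41 in the mutant and 5.19 to 5.42 with SU5402. Without Ndst1/2-/- replicate 1 it was lower (-0.43; adjusted p = 0.00506). The adaptor genes Shc1 (0.86 ± 0.06) and Frs3 (0.43) were higher, the decoy receptor gene Fgfrl1 (-0.44) was lower, and Grb2 (0.03) was not called. The phosphatase gene Ptpn11 was lower on its brightest probe (-0.23). That call was lost within array set A or B alone and with arrays scaled to equal medians. Its other probes (-0.04 and -0.115), detected on all arrays of both groups, were not called. Of 24 genes of this list on the array, 16 passed the detection filter, of which 7 were higher and 6 lower, and Fgf1, Fgf2, Fgf3, Fgfr3 and Fgfr4 were among those that did not pass. The median of the tested genes was 0.03, and -0.23 over the 13 genes that lie off chromosomes 8 and 11.

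The genes that build heparan sulfate went both ways, mostly by less than 1.5-fold. Over all genes 28.5% were higher and 31.6% lower. Of 30 synthesis and modification genes on the array 18 passed the detection filter, and of these 8 were higher, 5 lower and 5 not called, while 14 had intervals within 1.5-fold (median 0.17). Sulf1, which encodes a sulfatase that trims 6-O-sulfate outside the cell, measured 9.07, 9.06 and 9.08 in the mutant and 8.26, 8.27 and 8.19 with SU5402 (difference 0.83 ± 0.05, 1.77-fold; untreated 8.58 to 8.68). Hs6st1, the 6-O-sulfotransferase gene, measured 9.22, 9.38 and 9.37 in the mutant and 9.01, 8.84 and 8.99 with SU5402, both above untreated cells at 7.84 to 7.97 (difference 0.37 ± 0.07). Ext1 (0.30 ± 0.07) and Ext2 (0.39 ± 0.06), whose products together polymerise the chain, were both higher, as was Hs6st3 (0.41 ± 0.09). Hs3st1, the 3-O-sulfotransferase gene, was detected on all 4 SU5402 arrays (5.76 to 5.80) and on no mutant array (4.58 to 4.74), at least 1.59-fold lower. Papss1, which encodes the enzyme that makes the sulfate donor, differed by -0.39 ± 0.05. Fam20b (-0.36 ± 0.06), the kinase gene that primes the linker sugar, and Extl2 (-0.20 ± 0.06) were lower. Extl3 (0.29 ± 0.07), needed to start the chain, was higher. The Extl2 call was lost within array set B alone and with arrays scaled to equal medians. The call for Slc35b3 (-0.24), a sulfate donor transporter gene, was lost without Ndst1/2-/- replicate 2 or 3 or SU5402 replicate 1 or 3 (-0.24 to -0.18). The call for Xylt1 (0.29), which adds the first linker sugar, was lost without Ndst1/2-/- replicate 3 or SU5402 replicate 1 or 3 (0.22 to 0.27), and 1 of 4 SU5402 arrays detected it. The call for B3gat3 (0.36), a linker enzyme gene, was lost without Ndst1/2-/- replicate 2 or SU5402 replicate 1 or 2 (0.19 to 0.37). B3galt6, Xylt2, Slc35d1 and B4galt7 were not called. The 2-O-sulfotransferase gene Hs2st1 measured 7.24 in the mutant and 7.28 with SU5402 and was not called (95% interval -0.17 to 0.10). Ndst3 and Ndst4, the remaining members of the Ndst family, were detected on no array of the mutant, SU5402 or untreated groups.

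Of the 14 core protein genes, whose products carry the chains, 6 were higher, 2 were lower and 6 were not called (median 0.17). The 3 with the largest differences on all-detected probes were Hspg2, the basement membrane proteoglycan perlecan (11.44, 11.46 and 11.51 against 10.59, 10.68 and 10.69; difference 0.81 ± 0.07), Agrn, which encodes agrin (0.72 ± 0.06), and the glypican gene Gpc4 (0.69 ± 0.08). Gpc3 was 0.54 ± 0.07 higher. Spock2 was detected on no SU5402 array and all mutant arrays, at least 1.31-fold higher. Sdc3 was detected on no mutant array and was at least 1.21-fold lower, while the syndecan genes Sdc1 (-0.02) and Sdc4 (-0.13; -0.20 and called without Ndst1/2-/- replicate 2) were not called. The call for Sdc2 (0.22) was lost without Ndst1/2-/- replicate 3 (0.19) or SU5402 replicate 3 (0.15). The call for Gpc1 (-0.22), whose groups overlapped, was lost without Ndst1/2-/- replicate 2 (-0.17) or SU5402 replicate 2 (-0.16). Col18a1 (0.12; called without Ndst1/2-/- replicate 2 at 0.15), Gpc2 (0.25; called without SU5402 replicate 3 at 0.36 and without chlorate replicate 1 or 2 at 0.25), Srgn (-0.07) and Tgfbr3 (0.02) were not called. The chondroitin sulfate list, a related sulfated chain, held a large single difference. Chst3, the chondroitin 6-O-sulfotransferase gene, measured 7.78, 7.75 and 7.87 in the mutant and was detected on no SU5402 array on that probe, at least 6.80-fold higher (second probe 2.78). Chst15, which adds a further sulfate, was lower by 1.15 ± 0.12, and 5 of the 7 tested members were lower.

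**Figure D3:**
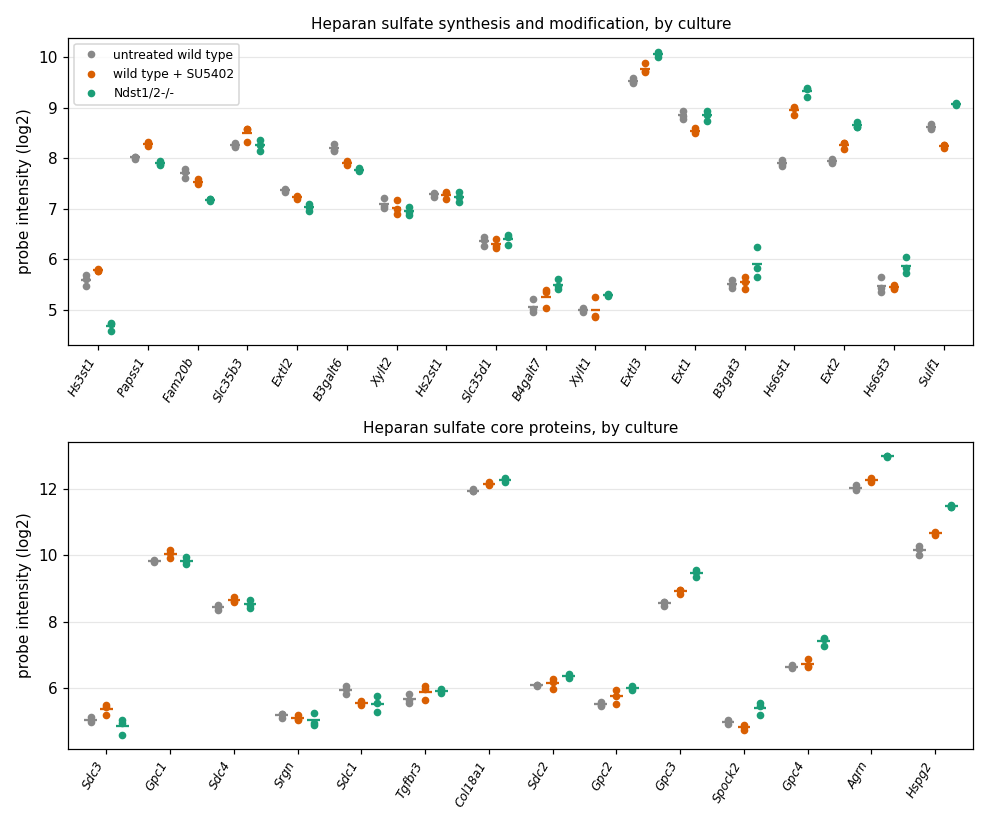
Log2 probe intensity of heparan sulfate synthesis genes (upper panel) and core protein genes (lower panel) by culture (points; bar, group mean), ordered by the difference between Ndst1/2-/- and SU5402. Sulf1, Agrn and Hspg2 lie highest in the mutant cultures, and Hs6st1 lies above untreated cells in both groups.

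Pluripotency genes went both ways, as did all genes tested (28.5% higher and 31.6% lower). Nanog, a core naive factor gene, measured 12.43, 12.56 and 12.58 in the mutant and 12.66, 12.54 and 12.64 with SU5402, overlapping, with untreated cells at 11.81 to 11.88 (difference -0.09 ± 0.06; 95% interval -0.22 to 0.04). Klf2, Zfp42 and Sox2 were not called either, and each had an interval within 1.5-fold. Dppa3, a maternal-effect gene that protects methylation in the early embryo, was lower: 5.94, 5.99 and 6.05 in the mutant against 9.89, 9.77 and 9.82 with SU5402, 14.2-fold lower (adjusted p = 2.94e-13), with 8.64 to 8.80 untreated. Prdm14, a repressor of FGF receptor genes and of DNA methylation in mouse ES cells, measured 6.21, 6.06 and 6.11 in the mutant and 5.13, 4.75 and 4.78 with SU5402, where 1 of 4 arrays detected it (adjusted p = 2.65e-07), so no exact fold is given. Klf5 (1.15 ± 0.06), Tcl1 (0.98 ± 0.07), Nr5a2 (0.68) and Esrrb (0.66) were also higher, although the probes of Nr5a2 spanned -0.09 to 0.68. Of 16 tested naive genes 6 were higher and 4 lower (median 0.03, or 0.40 over the 12 genes off chromosomes 8 and 11). Of 13 general pluripotency genes 5 were higher and 1 lower. Pou5f1 was higher on both probes. Its second probe gave 0.30 (adjusted p = 0.000329), while the brighter one (0.23 ± 0.08) kept its call without Ndst1/2-/- replicate 3 and lost it without any other single culture of the 2 groups (0.15 to 0.24; adjusted p = 0.0534 to 0.145). Tdgf1, a Nodal co-receptor gene, was lower (-0.62 ± 0.15).

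Genes of the primed epiblast, the state that follows naive pluripotency, went both ways, with 4 of 13 higher and 6 lower. Pou3f1, a POU factor gene, measured 6.93, 6.97 and 6.95 in the mutant, 7.76, 7.72 and 7.63 with SU5402 and 9.39 to 9.64 untreated (difference -0.75 ± 0.08), so the mutant was the lowest of the 3 groups. Dnmt3b, the de novo DNA methyltransferase gene, ran in the same order at 11.40, 11.27 and 11.31 against 12.57, 12.57 and 12.56 (difference -1.24 ± 0.06; untreated 13.28 to 13.39). Cldn6, a tight junction gene, was 6.96-fold lower, and Wnt8a was detected on no mutant array, at least 1.25-fold lower. Tcf15, a helix-loop-helix factor gene downstream of FGF, was higher in the mutant (means 8.89 against 8.26; untreated 9.94), as was Otx2 (0.61 ± 0.06). Utf1 (10.15 against 9.99; called at 0.16 without chlorate replicate 1) and the BMP ligand gene Bmp4 (6.74 against 6.66) were not called. Both lay near the SU5402 level, with untreated cells at 11.09 and 8.25.

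Trophectoderm genes, which mark the outer layer of the blastocyst, were mostly lower: 12 of 15 were lower in the mutant, 1 was higher and 2 were not called (median -1.18; -0.85 with undetected genes at their bound). Krt8, a keratin of simple epithelia, measured 6.67, 6.50 and 6.67 in the mutant and 10.29, 10.40 and 10.35 with SU5402, 13.3-fold lower (adjusted p = 1.84e-12), with 9.79 to 9.94 untreated. Its partner Krt18 was detected on no mutant array (5.01 to 5.08) and measured 8.24 to 8.52 with SU5402, at least 9.85-fold lower. For the keratins the untreated cultures lay near the SU5402 level, so it was the mutant that was low. Gata2, a zinc-finger factor of trophoblast and blood, behaved otherwise: 5.87, 5.63 and 5.53 in the mutant, 8.59, 8.58 and 8.64 with SU5402 and 5.94 to 6.05 untreated (difference -2.92 ± 0.08). There the SU5402 cultures stood apart and the mutant lay close to untreated cells. Tfap2c, an AP-2 factor gene of trophoblast and germ cells, followed that pattern at 10.49 to 10.60, 11.65 to 11.76 and 10.13 to 10.18 in the same order (difference -1.18 ± 0.06), while the homeobox gene Rhox9 (7.25 to 7.41, 9.07 to 9.26 and 7.71 to 7.84) was high with SU5402 and lower in the mutant than untreated. Cdx2, the trophectoderm homeobox gene, was detected on no mutant array, at least 1.77-fold lower. Tead4 was the member called higher, and Eomes was not called. Over all 19 trophectoderm genes on the array, detected or not, the summed background-corrected intensity was 2720 to 2820 in mutant cultures, 7370 to 7640 with SU5402 and 3380 to 3500 untreated. In bulk cultures fewer cells of a kind and less RNA per cell cannot be told apart.

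Imprinted genes, which are expressed from 1 parental copy, were nearly all lower in the mutant: 13 of 15 were lower, 0 higher by limma, also at an unadjusted p under 0.05 and with the authors' processed values, and 2 not called, with a median of -1.08 (-1.01 at the bounds). Phlda2, a placental growth restrainer, averaged 7.57 against 10.95 with SU5402, without overlap, 10.4-fold lower (adjusted p = 1.27e-12), with 10.65 to 10.80 untreated. Its neighbours on chromosome 7 followed: Igf2, the fetal growth factor gene, was 8.49-fold lower (6.80 to 6.87 against 9.79 to 10.04), and Cdkn1c, a cyclin kinase inhibitor gene, 4.48-fold lower (8.10 to 8.25 against 10.30 to 10.41). Dlk1 on chromosome 12 was detected on no mutant array and was at least 2.01-fold lower, as was Nnat on chromosome 2, at least 2.17-fold lower. Peg10 (-1.45) was lower too, and Peg3 (0.04) and Grb10 (-0.12) were not called. Gnas (-0.22) lost its call without Ndst1/2-/- replicate 1 or 3 or SU5402 replicate 3 (-0.25 to -0.13), and its other probe gave 0.08. Under the alternative settings the count of lower imprinted genes ran from 11 to 13. Untreated cells measured 10.50 to 10.62 for Cdkn1c, 6.28 to 6.55 for Dlk1 and 9.06 to 9.14 for Igf2, so the mutant was lowest for each. Germline genes that DNA methylation normally silences were also mostly lower, 8 of 11 with 1 higher (median -0.68), among them Asz1 (-2.15), Stra8 (-1.75) and Sycp1, which was detected on no mutant array (at least 2.16-fold lower).

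**Figure D4:**
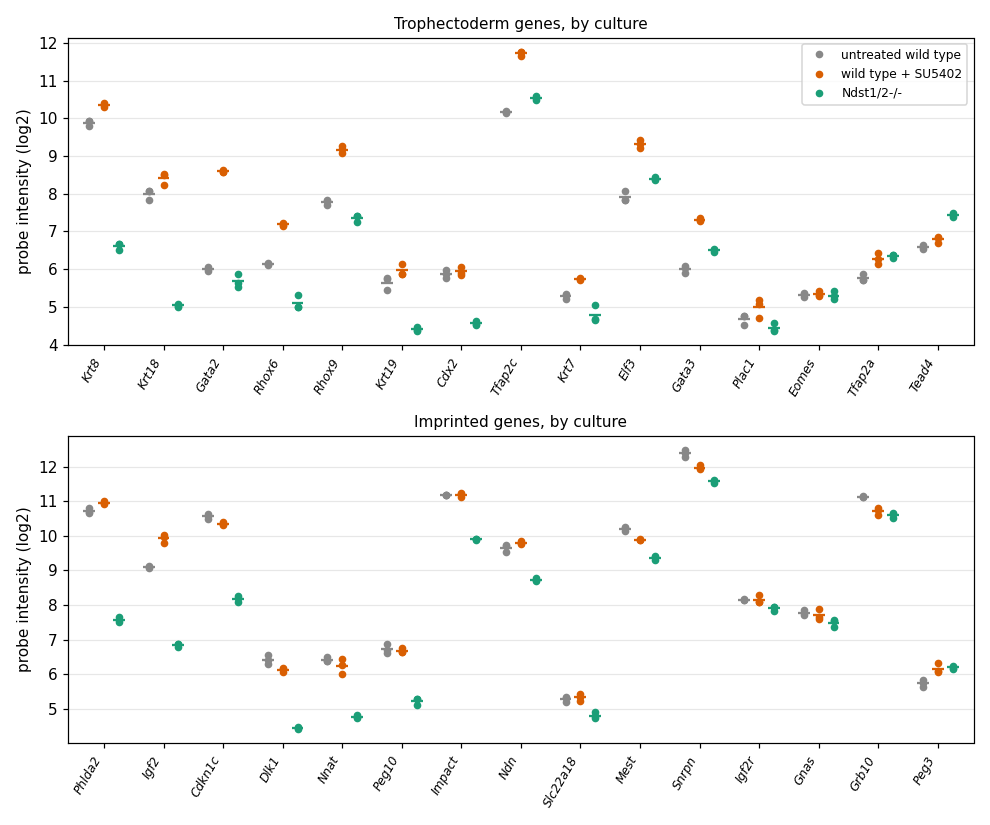
Log2 probe intensity of trophectoderm genes (upper panel) and imprinted genes (lower panel) by culture (points; bar, group mean), ordered by the difference between Ndst1/2-/- and SU5402. The keratins and Phlda2 are low in the mutant cultures only, whereas Gata2 is high in the SU5402 cultures only.

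Genes of other signalling pathways went both ways, in short lists to be read beside 28.5% higher and 31.6% lower over all genes. Lefty2 and Lefty1, Nodal targets that encode inhibitors of Nodal, measured 8.71 to 8.91 and 9.22 to 9.31 in the mutant against 11.38 to 11.43 and 11.09 to 11.14 with SU5402 (differences -2.59 ± 0.07 and -1.84 ± 0.06), with untreated cells at 10.80 to 10.94 and 10.40 to 10.57. Inhbb, the activin subunit gene, was 1.74 ± 0.09 higher, and Nodal was not called (-0.19; called at -0.24 without SU5402 replicate 1 and at -0.19 without untreated replicate 3). Of 8 Nodal genes 4 were lower and 1 higher. Sp5, a direct Wnt target, measured 7.67 to 7.83 with SU5402 and was detected on no mutant array, at least 6.19-fold lower, and Axin2, which restrains Wnt signalling, was 3.06-fold lower. The secreted Wnt antagonists Sfrp1 (2.06 ± 0.09) and Notum (1.45 ± 0.07) were higher, so the 8 Wnt genes split 3 and 3. Sfrp1 lies on chromosome 8, and Axin2 and Notum on chromosome 11. Of 10 BMP genes 5 were lower and 1 higher, with Id1 (-1.09) and Id3 (-0.88), the classic targets, both lower. The LIF targets Bcl3 (1.14) and Socs3 (0.72) were higher and Jak2 (-0.89) was lower, 4 of 12 being higher and 3 lower.

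Genes of the integrated and endoplasmic reticulum stress response were mostly higher: 14 of 20 were higher and 3 lower (median 0.51; 10 of 16 higher and median 0.36 off chromosomes 8 and 11). Atf4, the transcription factor gene at its centre, measured 8.67, 8.77 and 8.69 in the mutant and 6.86, 7.30 and 7.42 with SU5402 (difference 1.52 ± 0.12; untreated 7.23 to 7.44). Atf5 was 1.69 ± 0.07 higher, and Chac1, a glutathione-degrading enzyme gene, 1.09. The chaperone gene Hspa5 (0.05), the usual marker of endoplasmic reticulum stress, was not called. Serine and folate enzymes were higher in 7 of 10 and lower in 2, led by Shmt2 (2.84-fold), while the glycine cleavage gene Gldc was lower (-1.26). Cell cycle genes were higher in 14 of 23 and lower in 4 (median 0.32), with the mitotic kinase gene Plk1 at 10.96, 10.86 and 10.90 against 7.04, 7.18 and 7.48 (12.8-fold higher) and E2f2 at 1.71. Aurka (0.04) and Cdc20 (-0.03), which act beside Plk1 in mitosis, were not called. Targets of p53 were lower in 12 of 17 and higher in 3 (median -0.51), among them Cdkn1a, the p21 cell cycle inhibitor gene, at 7.33 to 7.66 against 9.00 to 9.10 (2.98-fold lower).

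**Figure D5:**
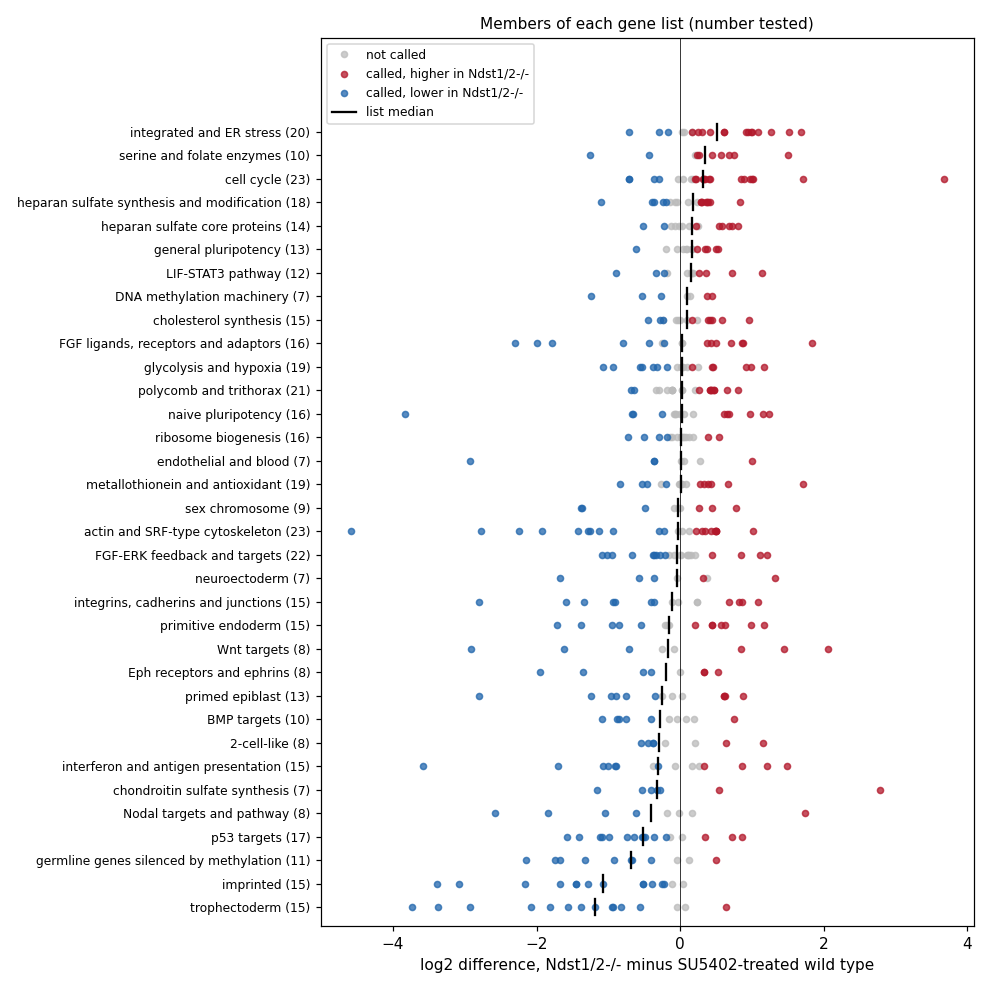
Log2 difference, Ndst1/2-/- minus SU5402, of every tested member of the 34 gene lists that had at least 7 tested genes (points: red, called higher; blue, called lower; grey, not called), with the list median as a black bar. Trophectoderm (-1.18) and imprinted genes (-1.08) lie at the low end and the stress response (0.51) at the high end.

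Several of the largest differences were in genes detected in one group alone: 335 probes called lower were detected on all 4 SU5402 arrays and on no mutant array, and 119 probes called higher were the reverse. Counted by the brightest probe of each gene, 244 and 68 genes met these rules. Acta1, the skeletal muscle actin gene, headed the first set with 9.03, 9.13 and 9.20 with SU5402 and 4.76, 4.47 and 4.37 in the mutant, at least 16.1-fold lower (limma, adjusted p = 5.29e-12), and untreated cells measured 8.31 to 8.45. Actc1, the cardiac actin gene (chosen after its values were seen), was likewise detected on no mutant array and measured 7.41 to 7.52 with SU5402, at least 5.04-fold lower. Gbp2b and Gbp2, interferon-induced GTPase genes that lie close together on chromosome 3, were detected on no mutant array. Gbp2b measured 4.37, 4.40 and 4.37 in the mutant against 8.59, 8.58 and 8.54 with SU5402 (adjusted p = 3.06e-14), Gbp2 was at least 8.16-fold lower, and Gbp3 of the same cluster at least 2.35-fold lower. All 3 Gbp genes were detected on every untreated array. These 5 genes are shown with their promoters, 250 bases before to 50 after the gene start, because all 5 were undetected in the mutant and each family has a known control element. The motif search was chosen after their values were seen. The sequences are RefSeq's for GRCm38.p6, printed 5′ to 3′ on the gene's strand. Capitals mark a CArG box, the site of serum response factor, in the actin genes and GAAANNGAAA, the core of the interferon-stimulated response element (ISRE), on either strand in the Gbp genes. Acta1 is at chr8:123894726-123895025, minus strand, and Actc1 at chr2:114052826-114053125, minus strand. Gbp2b is at chr3:142594597-142594896, plus strand, Gbp2 at chr3:142620413-142620712, plus strand, and Gbp3 at chr3:142559794-142560093, plus strand.
Acta1: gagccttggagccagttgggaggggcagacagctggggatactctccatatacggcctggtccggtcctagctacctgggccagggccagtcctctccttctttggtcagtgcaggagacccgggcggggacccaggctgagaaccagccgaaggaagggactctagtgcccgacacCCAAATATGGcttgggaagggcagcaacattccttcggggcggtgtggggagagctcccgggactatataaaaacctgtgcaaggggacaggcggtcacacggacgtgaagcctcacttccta
Actc1: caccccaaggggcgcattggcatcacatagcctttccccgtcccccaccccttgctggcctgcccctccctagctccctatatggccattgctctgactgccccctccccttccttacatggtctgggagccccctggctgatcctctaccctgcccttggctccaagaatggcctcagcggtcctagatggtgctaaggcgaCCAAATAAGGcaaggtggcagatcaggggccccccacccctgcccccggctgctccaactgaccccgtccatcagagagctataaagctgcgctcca
Gbp2b: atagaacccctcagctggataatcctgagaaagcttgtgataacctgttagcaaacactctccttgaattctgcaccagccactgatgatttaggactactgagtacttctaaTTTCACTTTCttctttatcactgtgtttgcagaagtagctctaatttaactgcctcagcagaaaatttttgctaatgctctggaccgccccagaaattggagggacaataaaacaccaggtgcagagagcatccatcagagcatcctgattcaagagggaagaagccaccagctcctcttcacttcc
Gbp2: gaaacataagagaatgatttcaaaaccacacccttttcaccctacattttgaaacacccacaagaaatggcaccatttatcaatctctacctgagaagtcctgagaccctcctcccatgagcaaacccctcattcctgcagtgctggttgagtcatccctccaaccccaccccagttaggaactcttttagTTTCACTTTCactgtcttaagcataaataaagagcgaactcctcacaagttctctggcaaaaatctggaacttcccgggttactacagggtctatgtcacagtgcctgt
Gbp3: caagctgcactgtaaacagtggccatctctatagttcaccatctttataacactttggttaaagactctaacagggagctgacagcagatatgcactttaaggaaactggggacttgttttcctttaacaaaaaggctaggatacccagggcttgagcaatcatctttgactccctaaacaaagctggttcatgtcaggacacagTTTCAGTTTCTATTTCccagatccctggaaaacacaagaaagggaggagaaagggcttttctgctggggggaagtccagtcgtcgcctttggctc

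The CArG box begins 73 bases before the gene start in Acta1 and 47 bases before it in Actc1, and it occurs in 1.57% of all 27025 promoters of this length. The ISRE core begins 137, 59 and 45 bases before the start in Gbp2b, Gbp2 and Gbp3, with a second, overlapping match in Gbp3, and 3.49% of all promoters hold it. Another motif, TTCNNNGAA, the GAS element of STAT factors (8.47% of all promoters), has no match in these 5. The 5 promoters were picked because their families have a known element, so their matches cannot test whether such elements are commoner among the lowered genes. A match of letters is no evidence of binding. Other genes of each family did not move alike. Acta2, the smooth muscle actin gene, was 1.92 lower on its brightest probe, and Tagln and Ankrd1 were detected on no mutant array, at least 2.12-fold and 1.87-fold lower. Vcl (0.03) and Tpm1 (-0.03) were not called, and 9 of the 23 cytoskeletal genes were higher against 11 lower. Of 15 interferon and antigen presentation genes 7 were lower and 4 higher. The median of this list was -0.31, and -0.065 off chromosomes 8 and 11. Irf1, an activator of the pathway, was lower (-0.91) and lies on chromosome 11, whose median was -0.34. Ifitm3, a membrane protein gene of the same response, was higher at 12.98, 12.98 and 12.82 against 11.51, 11.48 and 11.34 (2.80-fold).

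The largest increase by probe was Zfp330, a zinc-finger gene on chromosome 8, at 10.85, 10.78 and 10.79 in the mutant and undetected with SU5402, at least 54.7-fold higher. Its second probe differed by only 0.28, and Mak16, a ribosome assembly gene on the same chromosome, gave 3.20 on one probe and 0.20 on the other. For 5 of 29 genes with several probes and a called probe at least 4-fold apart, another probe detected on all 8 arrays was under 1.5-fold apart, so the transcript level of these genes is unsettled. Prdx2, a peroxide-reducing enzyme gene on chromosome 8, was higher on all 3 of its probes (1.53 to 3.77). Nod1, an intracellular sensor of bacteria, measured 9.26 to 9.36 against 5.57 to 5.77 (12.2-fold higher), and Olig1, a helix-loop-helix factor gene of the nervous system, 8.80 to 8.93 against 5.33 to 5.60 (10.7-fold higher). Untreated cells measured 5.31 to 5.54 and 5.15 to 5.53. Slc51a, a bile acid and steroid transporter subunit gene, was 8.99-fold higher, Pygb, a glycogen phosphorylase gene, 6.74-fold, and Csrp1, a LIM domain protein gene, 8.42-fold. The chemokine gene Ccl27a was detected in the mutant alone on one probe, at least 5.98-fold higher (other probe 1.08). Among the decreases, the iron exporter gene Slc40a1 measured 8.03 to 8.14 with SU5402 and was detected on no mutant array, at least 7.79-fold lower. The Ras activator gene Rasgrp1 was at least 8.27-fold lower, the splicing regulator gene Esrp1 8.68-fold and the placenta-specific gene Plac8 8.82-fold lower. Fthl17f (13.1-fold) and the germ cell gene Nlrp14 (8.40-fold) were lower as well. The related Nlrp4c averaged 4.97 in the mutant, where 1 of 4 arrays detected it, against 8.48 with SU5402 (adjusted p = 2.48e-12).

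Markers of other cell types were mostly dim. Of 14 fibroblast genes on the array 12 were detected on no mutant array and 9 on no SU5402 array, Col1a2, Col3a1 and Dcn among them in both. Their summed intensity was 405 to 412 in the mutant and 517 to 548 with SU5402. Primitive endoderm genes went both ways, with 7 of 15 higher and 5 lower. Off chromosomes 8 and 11, 4 of 12 were higher and 5 lower (median -0.20). The basement membrane gene Lamc1 (1.16) and Sox7 (0.98) were higher, and Dab2 (-1.71) and the defining factor Gata6 (detected on no mutant array, at least 1.37-fold lower) were lower. The summed level of the 20 on the array was 7770 to 8030 in the mutant and 5760 to 5800 with SU5402. Summed neuroectoderm markers stood at 2260 to 2450 and 1400 to 1460, with Sox1 and Pax6 detected on no array of either group. Gene by gene they went both ways: of 7 tested 2 were higher and 3 lower (median -0.05). Sox21 (1.32), which ES cells also express, was among those higher. Whether the share of such cells differed between the groups was not tested.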

How the data were processed

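Total RNA (500 ng, per the labels' protocols) was read on 16 Illumina mouse bead arrays with 25697 probes. The authors deposited non-normalized mean bead intensities with a detection p-value per probe and array, per the file headers, and BeadStudio is named in the submitters' processing notes. They also deposited processed intensities on a linear scale with a floor of 20, at which 53.11% of values lay, with a normalization that the sources used here do not state. Genes were named from the platform's annotation, which gives 1 symbol for 23978 probes. Intensities were background corrected with normexp from the detection p-values (offset 16), quantile normalized and put on the log2 scale (neqc, limma 3.58.1, R 4.3.3), where the offset lessens differences of dim probes. The 2 arrays of culture 3 in each group were averaged, giving 12 cultures. Probes with a mean detection p under 0.01 in at least 3 cultures entered the tests. All 4 groups were fitted together by limma (8 residual degrees of freedom, eBayes), with Benjamini-Hochberg adjustment over 13377 probes. A probe dim in one group has only a bound: the bright mean against the lowest signal detected on the dim group's arrays, or the dim probe's own where higher. Names follow a rule: the 15 largest differences each way, and up to 6 called and 3 uncalled genes in each of 36 lists, with all FGF and heparan sulfate genes. The lists and comparisons were chosen with earlier results of these data known. Lists got no test. The number of arrays limits the precision. The procedure was tested on simulated data.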

Additional observations from a re-analysis of the deposited data

How the results depend on the processing

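The counts of 3803 probes higher and 3947 lower stayed within 1.5 times under every alternative run, from 3053 to 4117 and from 3203 to 4232. The 4232 came from the fit with the array set as a block, which took the 2 arrays of culture 3 as separate samples. Leaving out single cultures gave 3500 to 3854 higher and 3636 to 3979 lower. The counts at least 2-fold apart depended on the background step: without background correction 183 were higher and 208 lower, and with an offset of 50 it was 211 and 252, against 397 and 536, since both settings add a constant that compresses dim probes. Without single cultures these counts were 397 to 415 and 536 to 544. Scaling by medians moved the median over all probes from 0.0109 to 0.0533 and the share of calls that were higher from 49.07% to 55.68%. Under it the medians of the actin (-0.03 to 0.10), sex chromosome and endothelial lists changed sign. The chaperone gene Hsp90b1 turned from -0.17 to 0.007341 under the same scaling and lost its call. Besides Hsp90b1, 19 of the 484 named genes lost their call. With the arrays of set A alone 34 lost it, with set B 52, and with the authors' processed values 26. Genes on chromosomes 8 and 11 were left out after the data were seen, which leaves 3260 probes higher and 3206 lower. The labels do not say what a shared replicate number marks, though replicate 1 lies in array set A, replicate 2 in set B and replicate 3 in both. Deviations of same-numbered cultures correlated at 0.19, 0.0692 and 0.14, above those of different numbers (-0.174 to 0.0596), a hint of pairing from the data and not the design. With the replicate block 3852 probes were higher and 4016 lower, and 2 named genes lost their call. Each group is 3 cultures from 1 study, the mutant's clone and parental line are not given, and dim probes carry bounds only.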

Other observations

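Regulators of chromatin differed by modest amounts. Of 21 polycomb and trithorax genes 9 were higher in Ndst1/2-/- cells than with SU5402 and 2 lower, beside 28.5% and 31.6% of all genes. Off chromosomes 8 and 11, 9 of 16 were higher and 1 lower, and the median was 0.33 against 0.03 for the whole list. Bmi1 (0.81 ± 0.11 on the log2 scale) and Cbx7 (0.65 ± 0.07), subunits of polycomb repressive complex 1, were higher, while Suz12, a core subunit of complex 2 that lies on chromosome 11, was lower (-0.68 ± 0.06). Among 7 DNA methylation genes the maintenance enzyme gene Dnmt1 (0.38) and its partner Uhrf1 (0.45) were higher, and Dnmt3b (-1.24) and its cofactor Dnmt3l (-0.53) lower. Of 8 genes of the 2-cell-like state 2 were higher, Tcstv1 (1.16) and Tcstv3 (0.63), and 4 lower, and Zscan4c (0.20) was not called.

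Adhesion genes went both ways. Of 15 integrin, cadherin and junction genes 4 were higher and 7 lower. The integrin subunit genes Itga5 (1.09), Itga6 (0.87) and Itgb5 (0.82) were higher and Itga3 (-0.91, chromosome 11) was lower. The desmosome gene Pkp2 (-1.59) and the gap junction gene Gja1 (-1.33) were lower beside Cldn6. P-cadherin, Cdh3 (0.69), was higher and E-cadherin, Cdh1 (-0.03), was not called. Of 8 Eph and ephrin genes 3 were higher and 4 lower, the ligand gene Efnb1 (-1.35) among them. Epha1 was detected on no mutant array on any of its 3 probes and was at least 2.23-fold lower on the one that all SU5402 arrays detected.

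Metabolic lists went both ways, beside 28.5% higher and 31.6% lower over all genes. Of 19 glycolysis genes 6 were higher and 7 lower, with Pgk1 (1.17) and Hk2 (0.92) at one end and Ldha (-1.08) at the other, and Gapdh (0.01) was not called. Of 19 antioxidant genes 6 were higher and 4 lower, and on chromosome 8 alone Nqo1 (1.70) was higher while Mt2 (-0.84), Mt1 (-0.52) and Hmox1 (-0.46) were lower. Of 15 cholesterol genes 6 were higher and 3 lower, led by Msmo1 (0.96, chromosome 8). Of 16 ribosome assembly genes 2 were higher and 4 lower. Of 4 mesendoderm genes 2 were lower, Fgf8 and Evx1 (-0.45), and Gsc (-0.03) was not called. Of 7 endothelial and blood genes 1 was higher, Vwf (0.99), and 3 lower. Of 9 sex chromosome genes 3 were higher, with Kdm5c at 0.78, and 3 lower.

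Promoter CpG content was not compared over genes undetected in one group, since under 80% of them matched a RefSeq promoter (78.7% of those undetected in the mutant and 76.5% of those undetected with SU5402, against 81.4% of all tested genes).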
